A study of Mus musculus with 27 samples.

Results

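The genes described here are the 8 listed for hyaluronan synthesis and the hyaluronan-binding matrix, taken by name from a table of 23279 genes. They are the hyaluronan synthases Has1, Has2 and Has3, the hyaluronan receptor Cd44, the proteoglycan versican (Vcan), the link protein Hapln1, and the hyaluronidases Hyal1 and Hyal2. Their RNA was read in 9 groups of mouse libraries. ES–FLB and ES–HLB cells came from aggregates of EB5 mouse ES cells with a targeted, heterozygous Hand2::mEGFP knock-in, a reporter of posterior limb mesenchyme. The aggregates received BMP4 and Matrigel, then retinoic acid (forelimb type) or the retinoic acid antagonist AGN193109 (hindlimb type), then LDN193189, Wnt3, hydrocortisone and methylcellulose. Cells positive for the reporter were sorted on day 9 from pooled aggregates. The embryo supplied forelimb and hindlimb buds at an early stage and at E10.5, called early and E10.5 FLBs or HLBs here. Cardiac tissue (Ca), tail bud (TB) and branchial arch (BA) were taken at E10.5 as well. All of these were Slc:ICR tissue amputated from several embryos with no sorting named. The labels give E10.0 for both early groups, whereas a figure legend of the study gives an earlier stage for the early FLBs than for the early HLBs, so that limb type and stage cannot be told apart in that pair. Each group had 3 libraries except the E10.5 HLBs. Replicate 2 of these had no values on chromosomes 5 to 9, X and Y or on chromosome 4 from position 138304738. This region holds the members Has3, Hyal1 and Hyal2. The library was left out, which leaves n = 2 and 26 libraries.

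Hyaluronan is an unbranched sugar chain without a protein core that Has enzymes extrude from the cell surface into the extracellular space. Versican, a large chondroitin sulfate proteoglycan, binds the chain through its head domain, and link proteins such as Hapln1 lock that contact. Cd44 anchors the chain to the cell and connects it to the actin cytoskeleton through the ERM proteins, and hyaluronidases cut it. In the embryo a hydrated coat of hyaluronan surrounds limb bud mesenchyme and thins where cells condense into cartilage, and in the heart it fills the cardiac jelly and the endocardial cushions. Has2 is the synthase that the heart needs.

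Library depth, read from the spacing of the low values, was 19642258 to 22142313 reads in the early limb buds and 5543746 to 8541937 reads in the other groups, so that depth and group cannot be told apart. A count of 3 reads, the floor used here, was 0.135 to 0.541 CPM, and such floors cover counting error only. Sorted ES–LB cells and whole tissue also differed in their other cell types. The summed level of 6 endothelial markers was 24.9 to 29.1 CPM in ES–FLBs and 37.5 to 42.8 CPM in ES–HLBs, against 337 to 353 CPM in early FLBs and 348 to 422 CPM in early HLBs, with none of the 6 at the floor in any group. The sum of 9 epithelial markers was 108 to 164 CPM in ES–FLBs and 208 to 226 CPM in ES–HLBs, against 357 to 499 CPM over the early limb buds. The sum of 7 limb mesenchyme markers was 1895 to 1966 CPM in ES–FLBs, 1899 to 1933 CPM in ES–HLBs and 1260 to 1318 CPM over the early limb buds. In whole tissue, fewer cells of a type and less RNA per cell cannot be told apart. The part of this makeup in the results below was not tested.

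Of the 8 members, 7 passed the filter on low values and were tested in the main fit. In the ES–LBs Has2 and Vcan were higher than in every limb bud group of the embryo, and Hapln1 was lower by 6.67-fold to 22.8-fold. Cd44 was moderately higher and Hyal2 moderately lower in both ES–LB types, at both stages of comparison. Between ES–FLBs and early FLBs, 6 members passed the threshold (an adjusted p of 0.05 in limma, Benjamini-Hochberg over 14438 genes), 4 higher and 2 lower, where 76.7% of all genes tested passed (35.3% higher and 41.4% lower). In ES–HLBs against early HLBs it was again 4 higher and 2 lower, where 75.2% of all genes passed (34.8% higher and 40.5% lower). Against the E10.5 limb buds 5 members passed for ES–FLBs, 3 higher and 2 lower (68.6% of all genes, 32.9% higher and 35.7% lower). For ES–HLBs 7 passed, 5 higher and 2 lower (68.5% of all genes, 32.9% higher and 35.6% lower). With most genes of the table past the threshold in these comparisons, the number of members called is no result, and the values below are their sizes and directions. All differences below are on the log2(CPM + 0.5) scale and all levels are scaled CPM, given as mean ± SD over libraries.

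**Figure D1:**
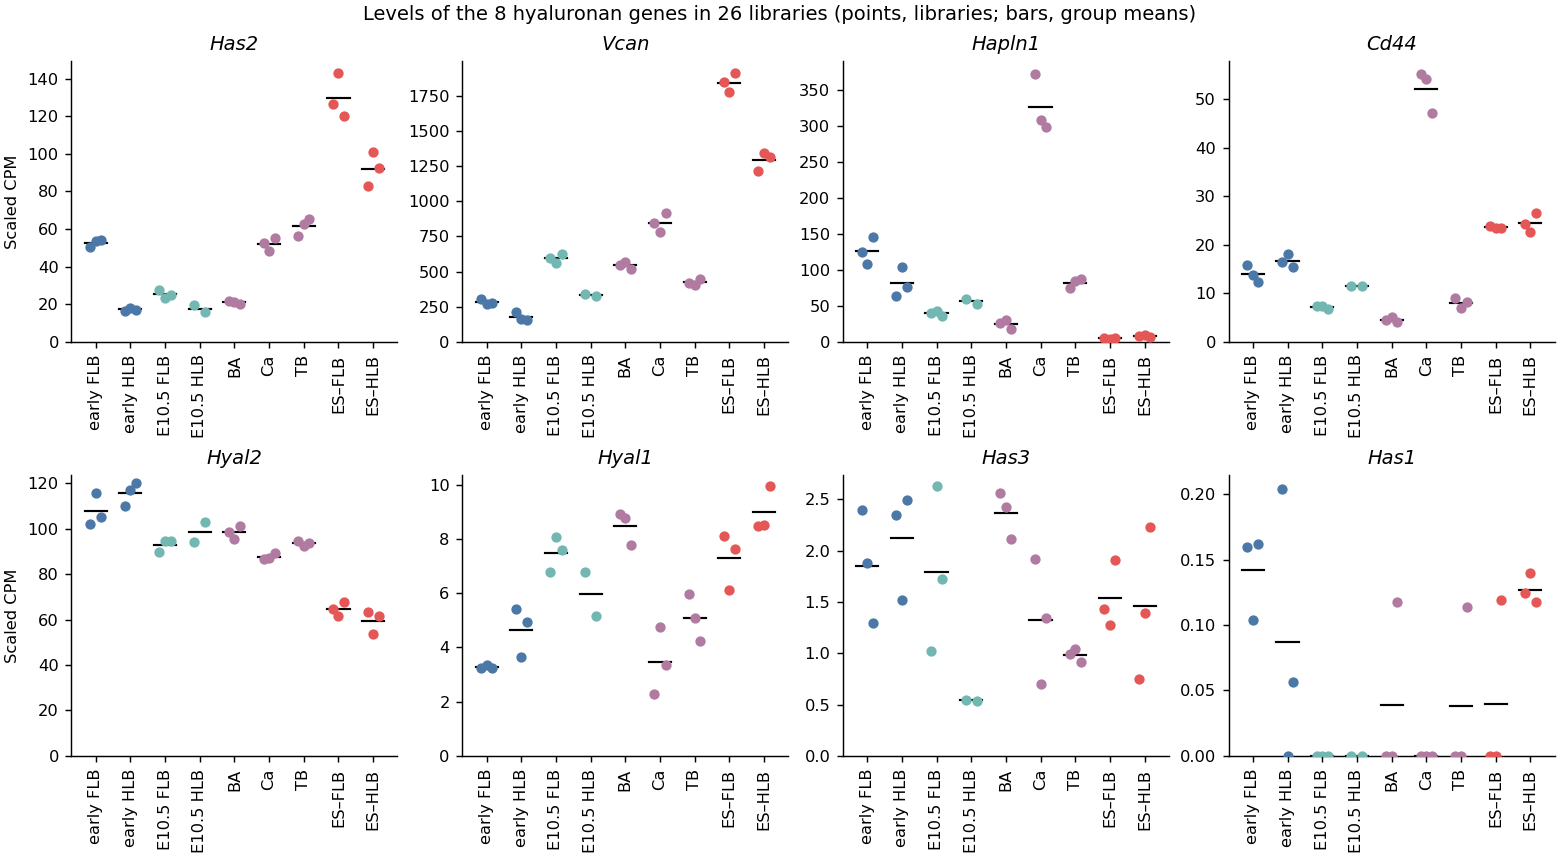
Scaled CPM (linear axes from 0) of the 8 genes in each of the 26 libraries, by group, with points for libraries and bars for group means. Has2 and Vcan stood highest in the 6 ES–LB libraries and Hapln1 lowest there, while Hapln1 and Cd44 peaked in cardiac tissue and Has1 did not exceed 0.204 CPM.

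Has2 made up nearly the whole of the synthase RNA. Per kilobase of exon, Has2 held 90.5% to 99.4% of the summed level of the 3 synthases in every library. In ES–FLBs its libraries read 127, 143 and 120.1 CPM, and in ES–HLBs 83.2, 101 and 92.6 CPM. Early FLBs read 50.4, 53.6 and 54.1 CPM and early HLBs 16.7, 18.0 and 17.0 CPM. No ES–LB library overlapped an embryonic one, and the 2 early limb buds differed more from each other than the 2 ES–LB types did. By the model Has2 was 2.45-fold higher in ES–FLBs than in early FLBs (log2 difference 1.29, SE 0.08, adjusted p = 4.19e-15) and 5.21-fold higher in ES–HLBs than in early HLBs (2.38, SE 0.08, adjusted p = 1.52e-21). These 2 differences were themselves different, by 1.09 (SE 0.12, adjusted p = 4.03e-08).

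The gap to the E10.5 limb buds was of similar size in both limb types. Has2 was 27.7, 23.5 and 24.8 CPM in the E10.5 FLBs and 19.4 and 15.8 CPM in the E10.5 HLBs. ES–FLBs were higher by 2.34 (95% CI 2.16 to 2.51) and ES–HLBs by 2.36 (95% CI 2.17 to 2.55), which is 5.05-fold and 5.13-fold. Hindlimb types had less Has2 than forelimb types in each of the 3 settings: by 0.49 between the ES–LBs (adjusted p = 4.92e-05), by 1.59 between the early limb buds (adjusted p = 1.57e-15) and by 0.52 at E10.5 (adjusted p = 0.000186). From the early stage to E10.5, Has2 fell by 1.05 in the FLBs (adjusted p = 2.98e-12), whereas in the HLBs the difference was 0.02 (95% CI −0.17 to 0.22, adjusted p = 0.896). The stage change differed between limb types by 1.07 (adjusted p = 3.58e-07).

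Elsewhere in the embryo Has2 was highest in the TB, at 56.2, 62.9 and 65.5 CPM, and in Ca, at 52.9, 48.1 and 55.3 CPM. The TB stood above the mean of the E10.5 limb buds by 1.52 (adjusted p = 3.56e-17) and Ca by 1.29 (adjusted p = 2.96e-16). The BA, at 21.9, 21.1 and 20.2 CPM, lay within their range, with a difference of 0.00 (95% CI −0.15 to 0.16). In the order of group means (ES–FLB, ES–HLB, TB, early FLB, Ca, E10.5 FLB, BA, E10.5 HLB, early HLB), the early FLBs overlapped Ca and the E10.5 HLBs overlapped the early HLBs, and the other neighbours did not overlap. Has2 shares 182 exon bases with the antisense transcript Has2os. The table's row for a Has2 antisense RNA, Has2as, had group means of 0.0426 to 0.446 CPM.

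The other synthases were scarce. Has1, whose enzyme makes hyaluronan slowly, was at 0 in 15 of 26 libraries. It was above 3 reads only in early HLB replicate 1 (0.204 CPM) and at 3 reads in early FLB replicates 1 and 3. The early limb buds were the deepest libraries. Elsewhere Has1 was under 3 reads. It was not tested in the main fit and no fold is given. Without the filter on low values Has1 entered limma. It then passed for E10.5 FLBs against early FLBs (−0.36, adjusted p = 0.0127) and for ES–HLBs against E10.5 HLBs (0.33, adjusted p = 0.0358). Both calls rested on values near or under 3 reads. Has3 ranged from 0.531 to 2.63 CPM. Both E10.5 HLB libraries (0.550 and 0.531 CPM) stood at 3 reads, and all other libraries were above 3 reads. It read 1.43, 1.28 and 1.91 CPM in ES–FLBs and 0.748, 1.39 and 2.23 CPM in ES–HLBs. The early FLBs, at 2.39, 1.87 and 1.29 CPM, and the early HLBs, at 2.35, 1.52 and 2.49 CPM, overlapped these. Neither ES–LB type differed from its early limb bud past the threshold (ES–FLBs −0.19, 95% CI −0.76 to 0.37; ES–HLBs −0.47, 95% CI −1.04 to 0.09), although ES–HLBs passed without ES–HLB replicate 3 (−0.75, adjusted p = 0.0248). At E10.5 Has3 was lower in the HLBs (0.550 and 0.531 CPM) than in the FLBs (1.02, 2.63 and 1.72 CPM), by 1.08 with an adjusted p of 0.0118. This call was lost without FLB replicate 2 (adjusted p = 0.0742), HLB replicate 1 (0.0753) or HLB replicate 3 (0.0651). ES–HLBs were above these HLBs by 0.84 (adjusted p = 0.0175), a call lost without HLB replicate 1 (0.0646), HLB replicate 3 (0.0712) or ES–HLB replicate 3 (0.127). The E10.5 HLBs were also below the early HLBs, by 1.31 (adjusted p = 0.00147). This Has3 difference, and those of the E10.5 HLBs from the E10.5 FLBs and ES–HLBs, rested on 3 reads in each E10.5 HLB library. The highest group mean was in the BA (2.37 ± 0.229 CPM, n = 3), above the E10.5 limb buds by 0.92 (adjusted p = 0.00457), with overlapping libraries. Has3 shares 352 exon bases with Chtf8 on the other strand, and the strand setting of the counting is not given in the sources used here.

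By CPM, which are not divided by exon length, Vcan was the most abundant member in the ES–LBs, as in every group of the embryo. Its libraries read 1844, 1779 and 1908 CPM in ES–FLBs and 1214, 1346 and 1316 CPM in ES–HLBs. The early FLBs read 305, 266 and 276 CPM and the early HLBs 213, 162 and 153 CPM. Every ES–LB library lay above every library of the embryo. Vcan was 6.53-fold higher in ES–FLBs than in early FLBs (2.71, SE 0.09, adjusted p = 9.03e-16) and 7.39-fold higher in ES–HLBs than in early HLBs (2.89, SE 0.09, adjusted p = 4.3e-16). The difference between these was 0.18 (95% CI −0.10 to 0.45) and did not pass (adjusted p = 0.395), except without early HLB replicate 1 (0.32, adjusted p = 0.0119). Among the genes that were higher, Vcan ranked 360 of 5101 by size in the first comparison and 270 of 5021 in the second. In the same 2 lists Has2 ranked 1666 and 472, Hyal1 2192 and 2411, and Cd44 3002 and 3574.

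In the embryo Vcan rose between the stages. It reached 597, 559 and 625 CPM in the E10.5 FLBs, up by 1.07 from the early stage (adjusted p = 6.29e-09), and 341 and 324 CPM in the E10.5 HLBs, up by 0.93 (adjusted p = 1.51e-06). The gap to the ES–LBs was accordingly smaller at E10.5, at 1.64 for ES–FLBs (adjusted p = 7.67e-12) and 1.96 for ES–HLBs (adjusted p = 2.68e-12). Hindlimb types had less Vcan than forelimb types, by 0.51 between the ES–LBs (adjusted p = 0.000469), 0.69 between the early limb buds (adjusted p = 2.07e-05) and 0.83 at E10.5 (adjusted p = 1.64e-05). Outside the limb, Ca read 846, 784 and 917 CPM, above the E10.5 limb buds by 0.93 (adjusted p = 4.02e-09). The BA (543 ± 26.3 CPM) was higher than the mean of the E10.5 FLBs and HLBs by 0.29 (adjusted p = 0.0115, and 0.0559 without BA replicate 2). The TB (422 ± 22.6 CPM) differed from that mean by −0.07 (95% CI −0.25 to 0.10). Both the BA and the TB lay below the E10.5 FLBs (593 CPM) and above the E10.5 HLBs (332 CPM) by group mean. Of the neighbours in the order of levels, only the E10.5 FLBs and the BA overlapped. The table gives 1 row for Vcan, so the splice forms, which differ in the regions that carry chondroitin sulfate, were not resolved.

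Vcan and Cd44 were the members higher in both ES–LB types and in Ca whose promoters the RefSeq table (GRCm38) holds, which is why their upstream sequence is shown. It holds a promoter for 6 of the 8 members. Each window is the 250 bases before the start that this table uses, without an exon of GENCODE in it, written 5′ to 3′ on the strand of the gene. The Vcan window is chr13:89742513-89742762 and the Cd44 window chr2:102901666-102901915, both on the minus strand. The RefSeq gene span of Vcan reaches 265 bases further out than its window, so that all 250 bases lie inside the span, and whether a RefSeq transcript covers them was not examined. Of the Cd44 window 4 bases lie inside the span of that gene.
Vcan: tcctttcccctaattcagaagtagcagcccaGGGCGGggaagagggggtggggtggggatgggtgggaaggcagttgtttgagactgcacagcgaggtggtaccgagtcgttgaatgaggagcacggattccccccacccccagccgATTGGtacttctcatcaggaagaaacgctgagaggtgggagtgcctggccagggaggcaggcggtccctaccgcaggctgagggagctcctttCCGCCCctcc
Cd44: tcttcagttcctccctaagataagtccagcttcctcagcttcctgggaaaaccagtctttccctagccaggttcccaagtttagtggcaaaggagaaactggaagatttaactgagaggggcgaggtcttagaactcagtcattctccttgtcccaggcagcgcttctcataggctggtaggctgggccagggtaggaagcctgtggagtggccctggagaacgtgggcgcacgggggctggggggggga
Capitals mark the matches, on either strand, to 6 short motifs that were searched: the TATA box TATAAA, the CCAAT box CCAAT, the GC box GGGCGG, the TCF/LEF core CTTTGA, the glucocorticoid half-site AGAACA and the nuclear receptor half-site AGGTCA. The Vcan window held 2 GC boxes, 219 and 10 bases before the start the table uses, and 1 CCAAT box at 103 bases, none of which overlapped. In 32851 promoters of the same length, 32.7% held a GC box and 33.8% a CCAAT box. The Cd44 window held none of the 6 motifs. The 2 windows had 62.4% (Vcan) and 56.4% (Cd44) G and C, against a median of 52.4% over all promoters.

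Hapln1 moved the other way. Its libraries read 5.48, 4.60 and 5.02 CPM in ES–FLBs and 7.48, 9.48 and 7.38 CPM in ES–HLBs. The early FLBs read 125, 109 and 145 CPM and the early HLBs 64.2, 104 and 75.6 CPM. All 6 ES–LB libraries lay below all 20 libraries of the embryo. Hapln1 was 22.8-fold lower in ES–FLBs than in early FLBs (−4.51, SE 0.18, adjusted p = 1.07e-14) and 9.35-fold lower in ES–HLBs than in early HLBs (−3.23, SE 0.18, adjusted p = 2.74e-12). By size it ranked 44 of the 5974 genes that were lower in the first comparison and 98 of 5841 in the second. The 2 differences were unequal, by 1.29 (SE 0.25, adjusted p = 0.00101).

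At E10.5 Hapln1 read 40.7, 42.6 and 35.5 CPM in the FLBs and 60.1 and 53.3 CPM in the HLBs. ES–FLBs were lower than the former by 2.86 and ES–HLBs lower than the latter by 2.74 (adjusted p = 3.6e-11 and 3.51e-10 in limma). From the early stage, Hapln1 fell by 1.65 in the FLBs (adjusted p = 1.36e-07), while in the HLBs the difference of −0.49 did not pass (95% CI −0.90 to −0.07, adjusted p = 0.0684). It passed without early HLB replicate 1 (−0.64, adjusted p = 0.0207) and with the incomplete library kept (−0.47, adjusted p = 0.0408). The stage change differed between limb types by 1.17 (adjusted p = 0.00378). The direction between limb types was not constant. Hapln1 was lower in early HLBs than in early FLBs by 0.65 (adjusted p = 0.0129), a call lost without early FLB replicate 3 (0.0669), without early HLB replicate 1 (0.0846) or when only the compared groups entered the model (0.098). It was higher in ES–HLBs than in ES–FLBs by 0.63 (adjusted p = 0.015), a call lost without ES–FLB replicate 2 (0.0626) or ES–HLB replicate 2 (0.0807). At E10.5 the HLBs were higher by 0.51 without passing (adjusted p = 0.0699). This difference passed with the incomplete library kept and its missing values left as missing (adjusted p = 0.0272), and with only the compared groups in the model (1.25e-05).

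Cardiac tissue had the most Hapln1, at 372, 308 and 299 CPM, 6.81-fold above the E10.5 limb buds (2.77, adjusted p = 4.68e-12). The TB, at 74.4, 84.5 and 87.6 CPM, was above them by 0.79 (adjusted p = 0.000445), and the BA, at 25.6, 29.8 and 18.1 CPM, below them by 0.96 (adjusted p = 0.00011). Between the highest and the lowest group mean lay a factor of 64.9, the widest span of any tested member. In the order Ca, early FLB, TB, early HLB, E10.5 HLB, E10.5 FLB, BA, ES–HLB and ES–FLB, only the TB and the early HLBs overlapped. Hapln1 is also a cartilage matrix gene. The sum of 4 cartilage markers was 167 to 182 CPM in ES–FLBs and 180.5 to 198 CPM in early FLBs, and 319 to 348 CPM in ES–HLBs against 203 to 212 CPM in early HLBs, with Matn1 at or below the floor in all groups.

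Vcan and Hapln1 lie next to each other on chromosome 13, with 43476 bases and no annotated gene between their ends (GRCm38). Hapln1 (89540529 to 89611832) is on the plus strand and Vcan (89655309 to 89743027) on the minus strand, so that they are transcribed towards each other. Per kilobase of exon, the level of Vcan was 0.776, 0.997 and 0.999 times that of Hapln1 in the early FLBs, and 0.639, 0.823 and 1.35 times in the early HLBs. It was 5.36, 5.98 and 7.19 times in the E10.5 FLBs and 2.32 and 2.48 times in the E10.5 HLBs. In ES–FLBs the ratio was 137, 155 and 158, and in ES–HLBs 58.0, 66.2 and 72.7. The proteoglycan and its link protein were thus at like levels per kilobase in the early limb buds and 58.0-fold to 158-fold apart in the ES–LBs. The lengths used were all annotated exon bases, 14462 for Vcan and 5902 for Hapln1. As splice forms were not resolved, the size of each ratio depends on these lengths. Ca was close to the early limb buds, with ratios of 0.927, 1.04 and 1.25, although both genes were at higher levels there.

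**Figure D2:**
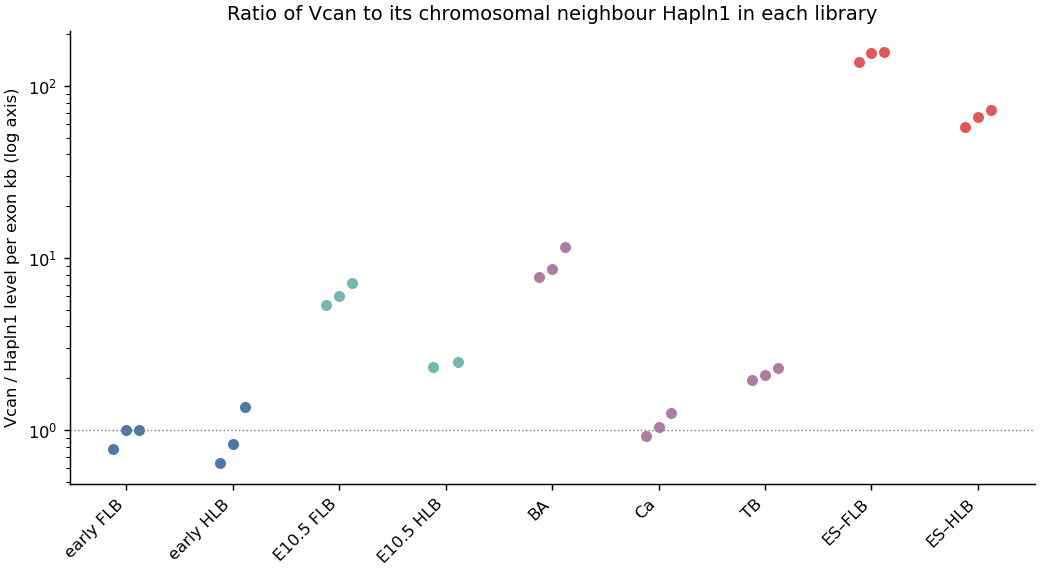
Level of Vcan divided by that of Hapln1, each per kilobase of exon, in each library by group (log axis; points are libraries and the dotted line is a ratio of 1). The ratio was between 58.0 and 158 in the 6 ES–LB libraries and at most 11.6 in the embryo, where the BA had the highest values.

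Cd44 was higher in the ES–LBs, at 23.9, 23.4 and 23.5 CPM in ES–FLBs and 24.3, 22.7 and 26.5 CPM in ES–HLBs. Early FLBs had 15.8, 13.8 and 12.4 CPM and early HLBs 16.4, 18.2 and 15.3 CPM. The ES–LBs did not overlap either. The differences were 0.74 for ES–FLBs (adjusted p = 4.86e-07) and 0.54 for ES–HLBs (adjusted p = 5.98e-05), and the ES–LB types differed from each other by 0.05 (95% CI −0.18 to 0.28). Over all genes the median absolute difference from the early limb buds was 0.60 for ES–FLBs and 0.56 for ES–HLBs. Cd44 fell towards E10.5, to 7.30, 7.40 and 6.71 CPM in the FLBs (by 0.92, adjusted p = 1.76e-08) and to 11.5 CPM in both HLB libraries (by 0.51, adjusted p = 0.00208). It was then higher in HLBs than in FLBs by 0.66 (adjusted p = 0.000291). Against E10.5, ES–FLBs were higher by 1.66 (adjusted p = 2.63e-14) and ES–HLBs by 1.05 (adjusted p = 7.86e-09).

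Ca had the most Cd44, at 55.3, 54.1 and 47.1 CPM, above the E10.5 limb buds by 2.45 (adjusted p = 1.67e-20). The BA had the least, at 4.46, 5.08 and 4.11 CPM, below them by 0.93 (adjusted p = 7.82e-09), and the TB (8.07 ± 1.06 CPM) differed by −0.17 (95% CI −0.37 to 0.04). Cd44 protein is known in the apical ectodermal ridge, the thickened epithelium at the rim of the limb bud. The summed level of the 3 ridge markers Fgf8, Fgf4 and Sp8 was 60.2 to 73.9 CPM in early FLBs and 81.3 to 90.9 CPM in early HLBs. It was 1.79 to 1.91 CPM in ES–FLBs, with Fgf8 at or below the floor, 5.49 to 5.85 CPM in ES–HLBs and 0.269 to 0.766 CPM in Ca. These 3 groups had the most Cd44 and the lowest sums, and they also differed from the limb buds in tissue or sorting. Within the embryonic limb buds the ridge sum and Cd44 had the same order, with early HLBs first, early FLBs next (their Cd44 overlapped, and Fgf4 was at or below the floor in early FLBs), then E10.5 HLBs (58.6 to 59.0 CPM) and E10.5 FLBs (30.4 to 36.5 CPM). The part of ridge cells in the level of Cd44 was not tested.

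The hyaluronidases were Hyal2, which is tethered to the cell surface and cuts long chains, and Hyal1, which digests the fragments in lysosomes. Per kilobase of exon, Hyal2 held 87.7% to 97.7% of their summed level. It read 64.6, 61.5 and 67.6 CPM in ES–FLBs and 63.2, 53.5 and 61.8 CPM in ES–HLBs. In the early FLBs it was 102, 116 and 105 CPM and in the early HLBs 110.0, 117 and 120.2 CPM. All 6 ES–LB libraries were below the 20 embryonic ones. Hyal2 was lower in ES–FLBs by 0.73 (adjusted p = 8.12e-13) and in ES–HLBs by 0.96 (adjusted p = 1.37e-15) than in the early limb buds. Among the genes that were lower, Hyal2 ranked 2990 of 5974 by size for ES–FLBs and 1698 of 5841 for ES–HLBs. It was lower by 0.52 (adjusted p = 3.48e-09) and 0.73 (adjusted p = 3.25e-11) than in the E10.5 FLBs and HLBs. Among the embryonic groups the means spanned only 87.7 to 116 CPM. The falls by 0.21 in the FLBs (adjusted p = 0.00297) and 0.23 in the HLBs (adjusted p = 0.00798) between the stages rested on the scaling. In values as deposited they were 0.03 (adjusted p = 0.698) and −0.13 (0.144). The FLB call was also lost without early FLB replicate 2 (0.182), and the HLB call without E10.5 HLB replicate 1 (0.154). Ca was below the E10.5 limb buds by 0.12 (adjusted p = 0.0359), a call lost without Ca replicate 1 (0.0969), Ca replicate 2 (0.18), E10.5 FLB replicate 2 (0.0586) or 3 (0.0589) or E10.5 HLB replicate 3 (0.156), and under median-of-ratios scaling (0.431).

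Hyal1 was at 8.10, 6.13 and 7.64 CPM in ES–FLBs and at 8.48, 8.50 and 9.96 CPM in ES–HLBs. In early FLBs it was 3.24, 3.33 and 3.23 CPM and in early HLBs 5.41, 3.64 and 4.92 CPM. It was higher in ES–FLBs by 1.04 (adjusted p = 6.9e-06) and in ES–HLBs by 0.89 (adjusted p = 6.58e-05), with no overlap. Against the E10.5 FLBs (6.79, 8.05 and 7.57 CPM) the ES–FLBs overlapped and differed by −0.04 (95% CI −0.41 to 0.34). Against the E10.5 HLBs (6.78 and 5.14 CPM) the ES–HLBs were higher by 0.56 (adjusted p = 0.0166), a call lost without HLB replicate 3 (0.205) or ES–HLB replicate 3 (0.0606). From the early stage to E10.5 it rose in the FLBs by 1.08 (adjusted p = 7.06e-06). In the HLBs the difference was 0.33 (95% CI −0.09 to 0.75). Ca had less than the E10.5 limb buds, by 0.89 (adjusted p = 1.37e-05). The values of Hyal1 are uncertain, as 1920 of its 3777 exon bases are shared on the same strand with Naa80, listed as Nat6. Nat6 had 10.7 CPM in early FLBs, 19.7 CPM in E10.5 FLBs and 16.2 CPM in ES–FLBs, so it stood in the same order as Hyal1 between these early and later groups.

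**Figure D3:**
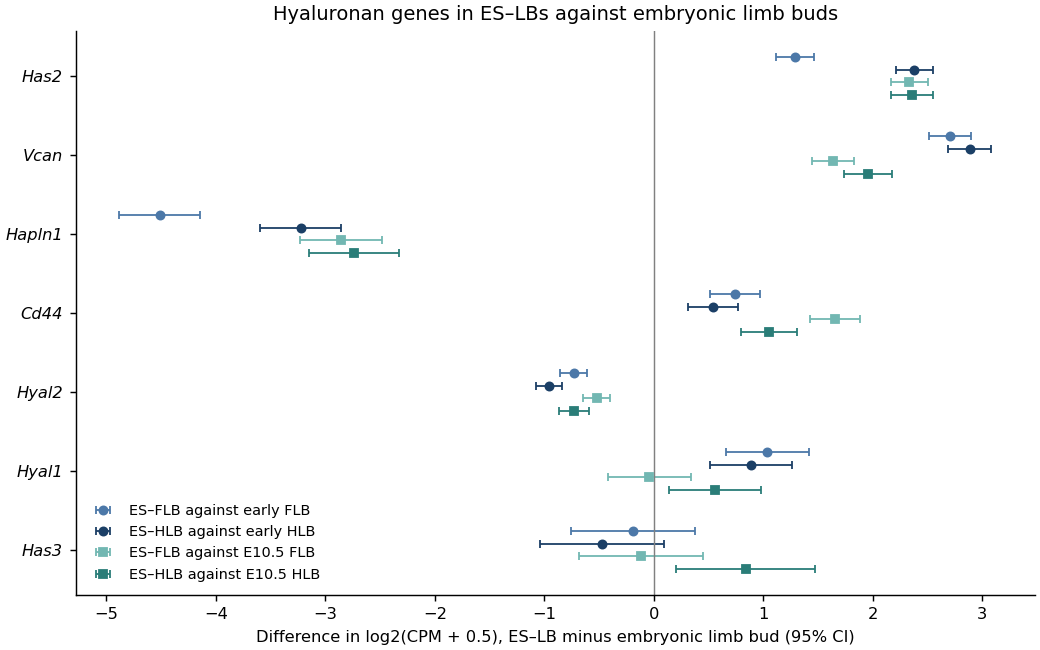
Difference of each tested member between ES–LBs and embryonic limb buds on the log2(CPM + 0.5) scale, with the 95% confidence interval from limma, for early (circles) and E10.5 (squares) limb buds. Has2 and Vcan lie right of 0 and Hapln1 and Hyal2 left of it in all 4 comparisons, while the intervals of Has3 cross 0 in 3 of the 4.

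Counts of members called in the comparisons of limb types, stages and tissues are set here beside the share of all genes called. Between ES–HLBs and ES–FLBs 3 members passed, 1 higher and 2 lower, where 19.7% of all genes did (10.8% higher and 8.89% lower). Between the early limb buds 3 passed, all lower in HLBs, where 19.0% of all genes did (8.34% higher and 10.7% lower). At E10.5, 1 member was higher in HLBs and 3 lower, against 22.5% of all genes (12.7% higher and 9.79% lower). Without E10.5 HLB replicate 1, which leaves 1 library in that group, the share of all genes was 10.8%. From the early stage to E10.5, 2 members rose and 4 fell in the FLBs, where 60.4% of all genes passed (24.3% higher and 36.1% lower). In the HLBs 1 rose and 3 fell, where 31.5% of all genes passed (1519 of 14438 genes higher and 21.0% lower). Against the E10.5 limb buds, 4 members were higher and 2 lower in Ca, where 76.9% of all genes passed (37.1% higher and 39.8% lower). The BA had 2 higher and 2 lower (33.4% of all genes, 16.2% higher and 17.2% lower), and the TB 2 higher (46.2% of all genes, 22.5% higher and 23.7% lower). The change from early limb bud to ES–LB differed between limb types in 2 members, both more positive in the hindlimb pair, and in 4 without early HLB replicate 1. Of all genes 20.0% passed that test (11.4% higher and 8.60% lower). The stage change differed in 4 members, 2 in each direction, where 22.2% of all genes passed (12.8% higher and 9.38% lower). In the BA the 4 were Cd44 and Hapln1, lower, and Has3 and Vcan, higher than the mean of the E10.5 FLBs and HLBs but with overlapping libraries. In the TB they were Has2 and Hapln1, both higher. In Ca the synthase Has2, Vcan, Hapln1 and Cd44 were all higher. The sum of 2 endocardial markers was 229 to 269 CPM in Ca, 39.0 to 47.9 CPM in E10.5 FLBs and 25.7 to 28.0 CPM in E10.5 HLBs. It was also 134 to 149 CPM in ES–FLBs and 74.8 to 89.2 CPM in ES–HLBs against 20.9 to 26.8 CPM over the early limb buds. In the ES–LBs that difference was in Npr3 (125 to 141 CPM in ES–FLBs and 64.8 to 78.6 CPM in ES–HLBs, against 9.84 to 12.5 and 15.3 to 18.6 CPM in early FLBs and HLBs). The other marker, Nfatc1, was at 8.19 ± 0.899 and 9.86 ± 1.45 CPM against 10.7 ± 1.54 and 8.69 ± 1.79 CPM (mean ± SD). In Ca 6 cardiomyocyte markers summed to 20473 to 24257 CPM.

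Around the members, 66 other genes of the pathway in 7 lists were examined, of which 56 were expressed enough to test. In ES–FLBs against early FLBs 24 were higher and 21 lower, and in ES–HLBs against early HLBs 19 and 17. The genes that cut or bind versican were mostly higher than in the early limb buds. All 6 Adamts proteases that cleave versican were higher in ES–FLBs (35.3% of all genes were higher) and 4 of 6 in ES–HLBs (34.8%), with none lower. Their median differences were 1.11 and 1.18, against −0.05 for all genes in both. Adamts9 was 144 ± 2.18 CPM in ES–FLBs and 44.4 ± 8.25 CPM in early FLBs (1.70, adjusted p = 2.42e-08). Of 4 tested partners of versican in the matrix, 3 were higher in ES–FLBs and all 4 in ES–HLBs, with medians of 1.55 and 2.50. Fbn1, the microfibril protein fibrillin, was 254 ± 14.3 against 63.3 ± 6.84 CPM in the forelimb pair (2.00, adjusted p = 2.72e-15) and 195 ± 11.2 against 33.8 ± 2.91 CPM in the hindlimb pair (2.52, adjusted p = 3.56e-17). Tenascin C (Tnc) was 388 ± 9.36 against 117 ± 6.24 CPM (1.73, adjusted p = 0.000338), and 175 ± 5.88 against 13.0 ± 5.91 CPM (3.81, adjusted p = 2.53e-08). Fibulin 2 (Fbln2) was 139.7 ± 6.35 CPM in ES–HLBs and 24.5 CPM in early HLBs (2.49, SE 0.08, adjusted p = 7.95e-23). Against the E10.5 limb buds, 5 Adamts genes were higher and 1 lower in ES–FLBs, and 5 higher and 0 lower in ES–HLBs. Of the 4 versican partners, 2 were higher in ES–FLBs and 4 in ES–HLBs, with 0 lower. Of all genes 32.9% were higher in each of these comparisons.

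For the other lists, again against the early limb buds, 41.4% of all genes were lower in ES–FLBs and 40.5% in ES–HLBs. The shares that were higher were 35.3% and 34.8%. Of 7 enzymes that make the sugar nucleotides of hyaluronan, 2 were higher and 4 lower in ES–FLBs and 1 higher and 3 lower in ES–HLBs. Gfpt2, which starts the hexosamine pathway, was 11.6 ± 1.03 CPM in ES–FLBs against 37.4 ± 2.22 CPM (−1.64, adjusted p = 2.91e-16), and 16.8 ± 2.50 CPM in ES–HLBs against 32.2 ± 0.887 CPM (−0.93, adjusted p = 3.82e-10). Gnpnat1, of the same pathway, was 25.0 ± 2.40 CPM in ES–HLBs and 53.3 ± 4.64 CPM in early HLBs (−1.08, adjusted p = 1.03e-06). The 3 ERM proteins were all lower in ES–FLBs, and 2 of them in ES–HLBs. Ezrin (Ezr), which is abundant in epithelia, was 26.5 ± 4.18 against 64.8 ± 10.6 CPM in the forelimb pair (−1.28, adjusted p = 9.49e-13). Of 14 other hyaluronan-binding proteins, 4 were higher and 5 lower in ES–FLBs and 5 and 5 in ES–HLBs. The scavenger receptor Stab1, a gene of endothelium and macrophages, was 2.80 ± 0.533 CPM in ES–FLBs against 33.4 ± 3.51 CPM (−3.37, adjusted p = 6.28e-22) and 2.53 ± 0.362 CPM in ES–HLBs against 29.9 ± 2.40 CPM (−3.33, adjusted p = 1.8e-21). The endothelial sums given above were lower in the same libraries. Of 20 genes of chondroitin sulfate synthesis, 8 were higher and 9 lower in ES–FLBs, and 4 and 7 in ES–HLBs, with medians of −0.05 and −0.21. Of the other turnover enzymes only 2 of 7 could be tested, with 1 higher in each ES–LB type.

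**Figure D4:**
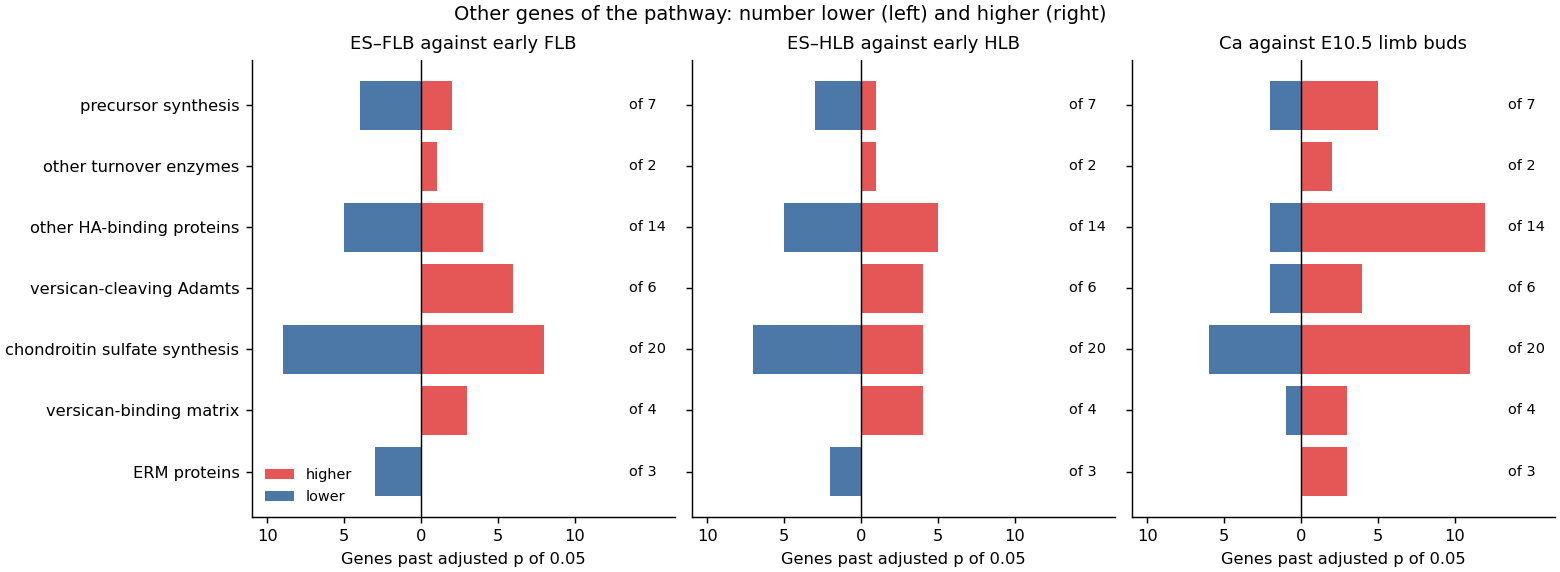
Number of genes in each of 7 pathway lists that were higher (right) or lower (left) past an adjusted p of 0.05, with the number tested beside each bar, in ES–FLBs and ES–HLBs against early limb buds and in Ca against E10.5 limb buds. The Adamts and versican-binding lists have no lower gene in the ES–LBs, and in Ca most lists lean to higher.

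Between ES–HLBs and ES–FLBs 11 of the 56 genes were higher and 13 lower, where 10.8% of all genes were higher and 8.89% lower. Ezr (1.00, adjusted p = 5.99e-09), Fbln2 (0.87, adjusted p = 4.05e-10) and Adamts15 (0.69, adjusted p = 0.000659) were higher in ES–HLBs. Tnc (−1.15, adjusted p = 0.0344), Adamts9 (−1.03, adjusted p = 0.000193) and Adamts20 (−0.96, adjusted p = 5.34e-05) were lower, in the direction of Has2 and Vcan. In 4 of the 6 Adamts genes ES–HLBs were lower and in 1 higher.

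Ca differed from the E10.5 limb buds in 53 of the 56, with 40 higher and 13 lower, where 76.9% of all genes passed (37.1% higher and 39.8% lower). Of the hyaluronan-binding list 12 of 14 were higher. The hyaluronan-degrading protein Cemip, listed as 9930013L23Rik, was 15.7 ± 3.40 CPM in Ca against 0.352 ± 0.260 CPM (4.25, adjusted p = 7.58e-13), and Tnc was higher by 3.89 (adjusted p = 3.56e-09) with Ca libraries at 97.2, 86.9 and 241 CPM. Itih2, a serum protein whose family is bound covalently to hyaluronan, was 2.94, 130.2 and 26.1 CPM in Ca and listed at 0 in the E10.5 limb buds, so that 1 library carried most of its mean. Lower in Ca were Tnfaip6, the enzyme of that transfer (1.69 ± 0.310 against 30.4 ± 0.965 CPM, −3.83, adjusted p = 5.81e-24), Adamts20 (−1.71, adjusted p = 4.65e-12) and Gfpt2 (−1.09, adjusted p = 6.75e-13). In the BA 12 were higher and 10 lower (16.2% and 17.2% of all genes). They included Fbn1 (1.25, adjusted p = 6.14e-11), the chondroitin sulfotransferase Chst11 (0.56, adjusted p = 2.62e-06) and Fbln2 (0.43, adjusted p = 1.24e-05) among the higher. Gnpnat1 (−0.75, adjusted p = 0.000174), moesin (Msn, −0.35, adjusted p = 1.23e-07) and Csgalnact2 (−0.31, adjusted p = 0.0421) were lower. In the TB 20 were higher and 11 lower (22.5% and 23.7% of all genes). Chst7 (2.79, adjusted p = 3.08e-12), Adamts9 (1.59, adjusted p = 5.82e-08) and Ezr (1.51, adjusted p = 1.85e-14) were higher. Tnfaip6 (−1.81, adjusted p = 1.92e-14), Gfpt2 (−0.94, adjusted p = 1.25e-10) and Fbln1 (−0.84, adjusted p = 3.69e-14) were lower there.

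Across the 9 group means the members did not follow 1 pattern. Pearson's r of mean log2(CPM + 0.5) was 0.74 between Has2 and Vcan, −0.61 between Vcan and Hapln1, −0.40 between Has2 and Hapln1, −0.92 between Vcan and Hyal2 and 0.72 between Hapln1 and Hyal2. Both genes of a pair were read in the same libraries. The ES–LBs held the highest means of Has2 and Vcan and the lowest of Hapln1 and Hyal2. With only 9 points, these values are descriptions. Among 11177 other genes the patterns most like Vcan were those of BC032203 (r = 0.99), Nfia (0.98) and Nfib (0.98). Both Nfia and Nfib encode nuclear factor I transcription factors and were highest in ES–FLBs. Like Has2 were Clock (0.97), Taok1 (0.95) and BC006779 (0.95). Like Hapln1 were Txnrd2 (0.99), Rhog (0.99) and Dusp2 (0.99), which were highest in Ca. Like Cd44 were Man1a (0.97), the desmosomal cadherin Dsc2 (0.97) and Yif1a (0.96), also highest in Ca. Like Hyal2 were Fdxacb1 (0.99), Cep76 (0.99) and H2-Ke2 (0.99). Since r takes no account of the size of a change, these genes varied to very different extents. Group means spanned only 93.4 to 132 CPM in Taok1 and 23.3 to 34.4 CPM in Rhog, but 5.76 to 265 CPM in Nfib.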

How the data were processed

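The authors sequenced stranded mRNA libraries, aligned reads with HISAT2 2.0.4 to mm10, counted them per gene with Cuffdiff (Cufflinks 2.1.1), tested them with edgeR 3.16.2 and deposited the results as CPM for each gene in each library. Tools and versions are from the submitters' processing notes. CPM are not counts, so no count test was run, although one had been planned. The 26 libraries were scaled by an unweighted trimmed mean of log ratios (30% and 5% trimmed, factors 0.867 to 1.09). A gene needed 1 CPM in 3 or more libraries (14438 did), and limma 3.58.1 was fitted to log2(CPM + 0.5) (trend, robust) in R 4.3.3 as 1 model of 9 groups, with Benjamini-Hochberg adjustment. Nothing in the labels says that replicates were separate cultures or litters, so p-values measure only the spread between these libraries. Members and lists were chosen with earlier results of these data known. Positions are from RefSeq and exon lengths from GENCODE M21 (GRCm38). All members and up to 3 listed genes per direction (past the threshold, 10 CPM or more in the higher group, no overlap between libraries) were named in 6 comparisons, with the 3 genes of most similar pattern for members of 10 CPM or more. On simulated data for ES–FLB against early FLB (14379 genes), 30 of 67 changes of 1.5-fold, 64 of 67 of 2-fold and 66 of 66 of 4-fold were recovered, with 7 false calls. There all other genes were unchanged, as many changes were up as down, and the spread was fixed. In the data 76.7% of genes passed in this comparison. The simulation therefore gives no error rate for it and cannot show an effect of the scaling. Alternatives were other pseudocounts, scalings, filters and models, the replicate number as a block, and each replicate left out.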

Additional observations from a re-analysis of the deposited data

Results flagged for a closer look

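In 6 cases a contrast differed between limb types by a test of the difference itself, in limma with Benjamini-Hochberg adjustment. The difference between ES–LBs and early limb buds was larger for Has2 in the hindlimb pair, by 1.09 on the log2 scale (adjusted p = 4.03e-08). For Hapln1 it was less negative in the hindlimb pair, by 1.29 (adjusted p = 0.00101). In both cases the early HLBs had lower levels than the early FLBs while the ES–LB types lay closer together or in the other order.

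The change from the early stage to E10.5 also differed between HLBs and FLBs. The values were 1.07 for Has2 (adjusted p = 3.58e-07), 1.17 for Hapln1 (adjusted p = 0.00378), −1.24 for Has3 (adjusted p = 0.0303) and −0.75 for Hyal1 (adjusted p = 0.0491). Has3 no longer passed without early FLB replicate 3, early HLB replicate 1 or 3, E10.5 FLB replicate 2 or 3, or E10.5 HLB replicate 1 or 3, with adjusted p of 0.0528 to 0.0977. Hyal1 no longer passed without any 1 early FLB library, early HLB replicate 1 or 3, E10.5 FLB replicate 2 or 3, or E10.5 HLB replicate 3, with adjusted p of 0.0656 to 0.223. The value for Has3 also rested on E10.5 HLB levels at 3 reads. As the stage of the early FLBs and HLBs may differ, limb type and stage cannot be told apart in these 6. Groups held 3 libraries or fewer, so no library was tested for standing apart from its group.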

How the results depend on the processing

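Over all alternatives, 1590 values of single genes kept their side of the threshold, 44 no longer passed, 16 came to pass and 1 reversed. A change of sign was counted as reversed only where a fit passed, so the 1590 include changes of sign in values that passed in neither fit. An example is Has2 in E10.5 HLBs against early HLBs, at −0.12 to 0.17 with single libraries left out. The higher Has2, Vcan and Cd44 and the lower Hapln1 of the ES–LBs against early and E10.5 limb buds passed in every setting run. The reversed value was Hyal2 in E10.5 FLBs against early FLBs, 0.0289 in values as deposited (adjusted p = 0.698). That scaling moved the median of all genes by 0.27 in ES–FLBs against early FLBs, 0.23 in ES–HLBs against early HLBs and 0.21 in E10.5 FLBs against early FLBs, so changes are relative to the scaling used. Without a filter on low values, 2 members differed in their stage change between limb types instead of 4, as more genes were tested. With each library left out in turn, 2 to 4 members passed for that stage difference and 2 to 4 for the difference between limb types in the change from early limb bud to ES–LB, where 2 passed with all libraries. The other counts of members stayed within 1.5 times. Of the counts over all genes, 1 did not, that of E10.5 HLBs against E10.5 FLBs, which was 3251 with all libraries and 1559 without E10.5 HLB replicate 1. Replicate numbers are shared between groups and pair nothing by the labels. In the 9 comparisons checked, the deviations of same-numbered libraries had r of −0.0869 to 0.0997. Over all pairs of groups r reached 0.126, with 3 of 100 same-numbered pairs over 0.1, and 0.153 between different numbers, with 2 of 200 over 0.1. In all, 29 of 48 libraries correlated best with their own number, among them 6 of 6 in ES–HLBs against ES–FLBs and 4 of 4 in E10.5 HLBs against E10.5 FLBs. With the replicate number as a block, the count of all genes called changed by a ratio of 0.974 to 1.06, and the members called were the same in 13 of 14 comparisons, the exception being the stage difference, where 3 passed and Hyal1 was at −0.75 (adjusted p = 0.0573). A planned count test with edgeR was not run, as the values are CPM. Depth limits Has1, whose values lay near or under 3 reads, and Has3.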
